A study of Mus musculus with 9 samples.

Results

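The replication-dependent histone genes were taken as the rows of the count table whose mouse symbols begin with Hist1h, Hist2h, Hist3h or Hist4h and whose counts summed to at least 10 over the 9 libraries. This gave 60 genes of 55403 gene rows: 6 for the linker histone H1, 14 for H2A, 16 for H2B, 11 for H3 and 13 for H4. Of these, 48 lie in the Hist1 cluster on chromosome 13, 8 in the Hist2 cluster on chromosome 3, 3 in the Hist3 cluster on chromosome 11, and Hist4h4 lies alone on chromosome 6. A further 10 symbols fell below the minimum, 6 of them with 0 counts in every library. Hist1h2al was the nearest outside, with 6 counts in all, and Hist2h2aa2, with 10 counts, was the lowest inside. The rule used the sum over all libraries and no difference between groups. It covers 59 genes annotated as protein coding and 1 pseudogene, Hist3h2bb-ps.

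Nucleosomes wrap DNA around a core built of H2A, H2B, H3 and H4, and the linker histone H1 binds where the DNA enters and leaves. The genes studied here supply histones in S phase, when newly copied DNA must be packaged, and most of their mRNAs end in a conserved stem-loop in place of a poly(A) tail. The stem-loop is bound by the protein encoded by Slbp, and transcription is driven by the coactivator encoded by Npat. Libraries made by removing ribosomal RNA, as these were, keep such transcripts, whereas selection for poly(A) tails loses most of them.

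The libraries came from mammary tumors of female C57BL/6 mice carrying the MUC1.Tg and MMTV-PyMT transgenes. In the latter the long terminal repeat of mouse mammary tumor virus, active in mammary epithelium, expresses the middle T oncogene of polyoma virus. The WT group (genotype Hspa1a/Hspa1b+/+) had 4 samples from mice aged 122 to 132 days, and the KO group (Hspa1a/Hspa1b-/-) had 5 samples from mice aged 120 to 125 days. Hspa1a and Hspa1b encode the stress-inducible heat shock protein Hsp72. All 9 samples share both transgenes, and all tumors were dissociated with collagenase and trypsin before RNA was extracted. The labels number the samples within each genotype without naming animals, and the spread that p-values rest on may in part be technical. In bulk RNA, fewer cells of a type and less RNA per cell cannot be told apart.

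The 3' stem-loops are shown first because they define how these mRNAs end and because their letters sort the genes by class. They were searched in the annotated transcripts (GENCODE M21, build GRCm38) as a run of 16 letters (GG, any 2 letters, CTT, any letter, T, any letter, AG, any 2 letters and CC), on the transcript strand, in the first 100 bases after the stop codon. Of the 60 genes, 45 have a model with at least 40 bases after the stop, and 42 of those hold the pattern. The same search found it in 6 of 20195 other genes (0.0297%). In each of the 42, all 6 stem positions pair, although the pattern itself fixes 4 of them. The stem-loop began 21 to 58 bases after the stop codon, with a median of 31. One example of each of the 8 forms follows, 5' to 3', with the 16 letters in capitals and 5 flanking bases on each side.
Hist1h1c: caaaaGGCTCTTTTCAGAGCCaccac
Hist1h3e: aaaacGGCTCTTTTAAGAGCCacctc
Hist2h2ac: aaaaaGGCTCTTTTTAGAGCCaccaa
Hist1h3g: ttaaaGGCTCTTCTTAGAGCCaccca
Hist1h4h: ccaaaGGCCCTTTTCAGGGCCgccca
Hist2h4: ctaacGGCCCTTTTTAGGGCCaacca
Hist1h4b: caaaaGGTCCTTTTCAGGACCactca
Hist1h4a: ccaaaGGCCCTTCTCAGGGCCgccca

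The form shown for Hist1h1c (chr13:23739507-23739532, plus strand) was the commonest, in 22 genes: 3 of H1, 7 of H2A, 8 of H2B and 4 of H3. No H4 gene carried it. The form of Hist1h3e (chr13:23561898-23561923, minus strand), which differs in the loop, was held by 6 genes of H1, H2B and H3. Hist2h2ac (chr3:96220413-96220438, minus strand) and Hist1h3g (chr13:23535884-23535909, plus strand) each had a form of their own. The H4 genes used other stems: the form of Hist1h4h (chr13:23531453-23531478, plus strand) was held by 7 genes, all of H4. That of Hist2h4 (chr3:96262934-96262959, minus strand) was shared with Hist1h4i, and that of Hist1h4b (chr13:23757361-23757386, plus strand) with Hist1h4j. Hist1h4a (chr13:23760795-23760820, minus strand) was alone in its form. All 12 H4 genes with a stem-loop had a stem opening with GGCCC or GGTCC, and the other 30 had one opening with GGCTC. The 3 genes without the pattern whose models hold at least 40 bases after the stop were Hist1h2bc, Hist2h2be and Hist1h1a. The Hist1h1a model ends 48 bases after the stop, so a stem-loop further along would not be in it. Among the other genes with the pattern was H2afx, the histone H2A.X gene, whose stem-loop (chr9:44335235-44335260, plus strand) has an H4-type stem.
H2afx: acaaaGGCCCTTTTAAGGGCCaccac

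Promoters are shown because the classes also differ in the letters ahead of their starts. RefSeq windows (GRCm38.p6) from 250 bases before to 50 bases after the start were matched for 54 of the 60 genes. They were searched on both strands for the TATA box as TATAAA, the box bound by NF-Y as CCAAT, the octamer bound by Oct factors as ATTTGCAT and a box described in H1 promoters as AAACACA. In the windows below, each match on either strand is in capitals. The first is Hist1h2bg (chr13:23571150-23571449, plus strand) and the next is Hist1h1e (chr13:23622509-23622808, minus strand), both printed along the gene's own strand.
Hist1h2bg: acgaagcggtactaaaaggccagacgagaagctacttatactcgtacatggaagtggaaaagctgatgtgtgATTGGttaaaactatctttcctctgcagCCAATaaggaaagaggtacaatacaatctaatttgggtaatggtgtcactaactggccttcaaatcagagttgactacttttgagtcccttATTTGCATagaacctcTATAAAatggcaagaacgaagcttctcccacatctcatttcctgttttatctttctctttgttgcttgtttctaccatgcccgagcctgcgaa
Hist1h1e: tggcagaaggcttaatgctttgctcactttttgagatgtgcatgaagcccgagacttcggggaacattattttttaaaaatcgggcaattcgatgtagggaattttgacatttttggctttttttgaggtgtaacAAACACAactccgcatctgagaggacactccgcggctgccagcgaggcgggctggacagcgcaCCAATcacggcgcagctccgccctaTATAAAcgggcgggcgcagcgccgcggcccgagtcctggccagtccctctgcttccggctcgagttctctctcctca

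CCAAT was present in all 6 H1, 14 H2A, 13 H2B and 9 H3 windows but in 3 of 12 H4 windows, against 37.4% of all 32851 promoters of the same length. The octamer was present in 6 of 14 H2A and 6 of 13 H2B windows and in none of H1, H3 or H4, against 1.74% of all promoters. Many H2A and H2B genes lie head to head, so their windows overlap and one match can be counted in both. AAACACA was found in 5 of 6 H1 windows, in 1 H2A and in 1 H2B window, against 7.18% of all promoters. TATAAA was found in 32 of 54 windows, against 13.6% of all. These are matches of letters, and no binding was measured.

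Each library held 4410399 to 6221181 fragments counted on genes, and histone genes took 2734 to 4877 of them, or 0.0562% to 0.111%. Levels are given as CPM, the count scaled to the library's total over tested genes with TMM factors, and 3 counts of a library's gene total correspond to 0.482 to 0.680 CPM. The targeted genes followed the labels: Hspa1b was at 28.8 to 81.1 CPM in WT and 0 to 0.657 CPM in KO (edgeR adjusted p = 5.31e-05), and Hspa1a at 3.99 to 9.77 and 0.163 to 1.64 CPM (edgeR adjusted p = 0.0342). All 8 markers fixed for luminal epithelium were detected, with summed levels of 3479 to 6445 CPM in WT and 3189 to 3842 CPM in KO. Only fragments aligned to 1 place appear to be counted, and histone genes resemble each other. Of a gene's 50-base windows, a median of 46.4% also occur in the annotated transcripts of another gene. The class median was 1.13% for H1, 39.5% for H4, 44.0% for H2B, 60.4% for H3 and 62.6% for H2A, and 26 of the 60 genes were over 50%. Levels of those genes are therefore uncertain. These shares include windows of overlapping annotations of the same bases, which are not copies. For Hist2h2bb, 53.6% of windows occur in another gene and 0% in another histone gene, and for Hist3h2a 31.5% and 2.00%. In addition, 19 of the 60 overlap exons of another annotated gene, and which strand was counted is not stated in the labels.

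One library stood apart. Over the 60 genes together, the WT libraries held 1134, 571, 750 and 711 CPM in the order WT 1 to WT 4, and the KO libraries held 689, 570, 709, 704 and 636 CPM in the order KO 1 to KO 5. WT 1 lay above all others, at 1.63 times their median, while the other 3 WT libraries spanned nearly the same range as the KO libraries. WT 1 was the highest library for 50 of the 60 genes, and for 47 of the 53 that entered the test. Neither this count nor the ratio to the other libraries was taken over all genes tested. How far the excess of WT 1 is particular to histone genes is therefore not shown. The 6 tested genes highest elsewhere were Hist1h1e, Hist2h2ab and Hist2h2bb (KO 4), Hist1h2bb and Hist3h2a (KO 3) and Hist2h2be (WT 2). Low values were spread over more libraries: KO 2 was lowest for 16 tested genes, WT 2 for 13, and WT 4 and KO 4 for 8 each. Class and list medians between genotypes are therefore given with and without WT 1.

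**Figure D1:**
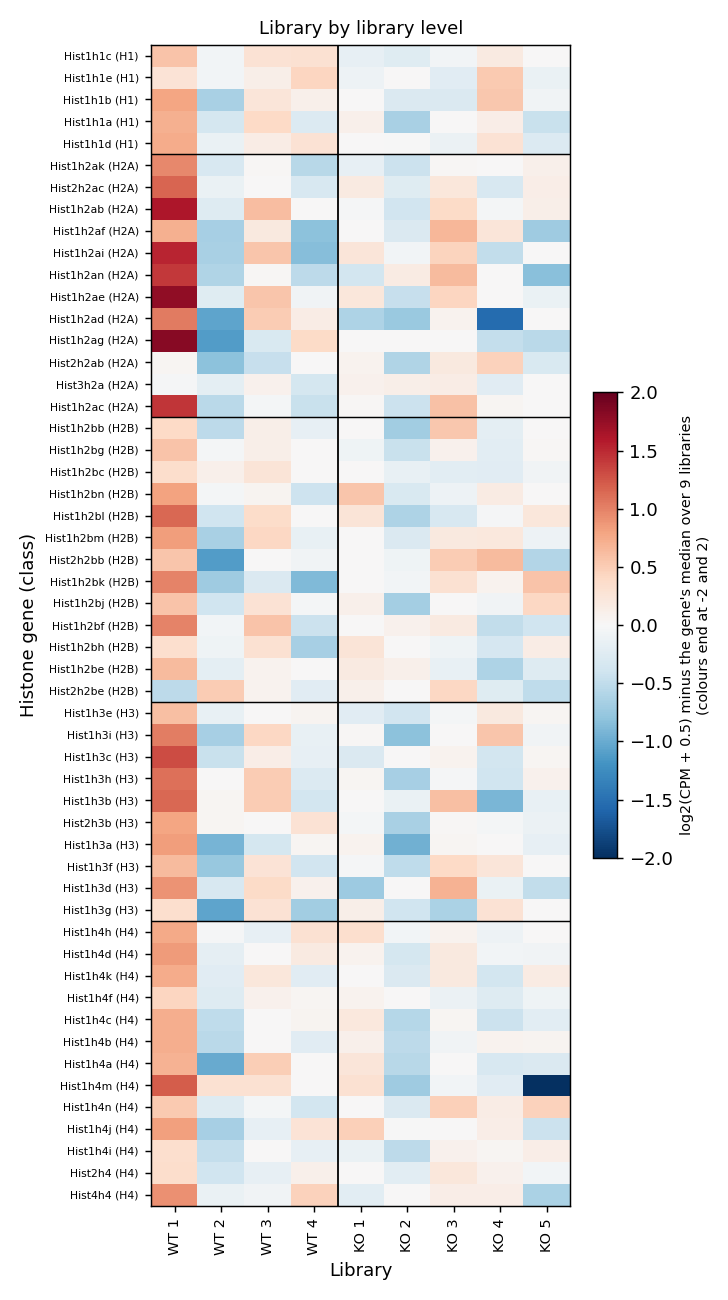
Level of each of the 53 tested histone genes (rows, grouped by class) in each library (columns, WT left of the line and KO right of it), as log2(CPM + 0.5) minus the gene's median over the 9 libraries. The WT 1 column is the highest for 47 of the 53 genes, and the single darkest blue cell is Hist1h4m in KO 5, where its count was 0.

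The excess of WT 1 was uneven across classes. As the median over genes of the ratio of WT 1 to the median of the other libraries, it was 2.80 for H2A, 1.98 for H3, 1.79 for H4, 1.74 for H1 and 1.58 for H2B. Summed H2A was 173 CPM in WT 1 against 53.7 to 93.8 CPM in the other 8 libraries. Summed H3 was 131 CPM against 52.6 to 81.4 CPM, and summed H4 was 339 CPM against 164 to 224 CPM. Summed H2B was 160 CPM against 90.8 to 123 CPM. In these 4 classes the gap between WT 1 and the next library was clear, but H1 differed: WT 1 held 332 CPM and KO 4 followed with 284 CPM, the remaining 7 libraries lying at 203 to 273 CPM. H2A thus made up 15.2% of the histone CPM of WT 1 and 8.09% to 13.2% elsewhere.

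**Figure D2:**
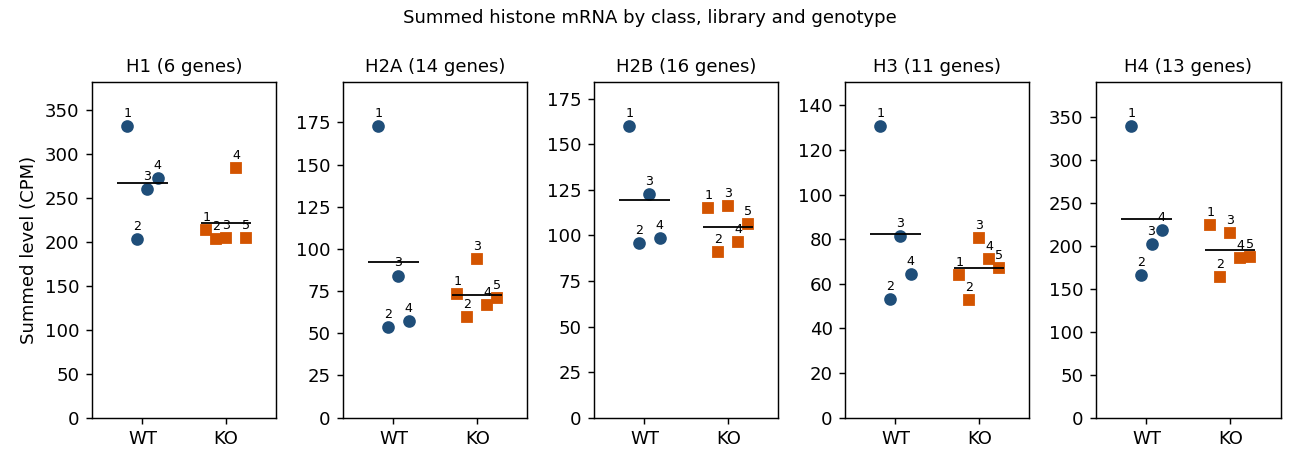
Summed level of each histone class in CPM (vertical axis, from 0), with 1 point per library (number beside the point) and a bar at the group mean. WT 1 is the top point in all 5 classes (332 CPM for H1 and 173 CPM for H2A), and the other WT points lie within or close to the range of the KO points.

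Other measures of the same libraries did not all move with WT 1. Summed over 24 genes of DNA replication, WT 1 was the fifth of 9 libraries, at 554 CPM in a range of 414 to 646 CPM. Over 15 genes of mitosis it was the third, at 837 CPM, and KO 3 was the highest at 1150 CPM. Over 12 noncoding RNAs without poly(A) tails, 3 of them at 0, WT 1 was the lowest library, at 8203 CPM against 8417 to 11941 CPM elsewhere. Most of that sum was Rn7sk, at 7732 CPM in WT 1, which was lower in KO 4 (7416 CPM) and KO 5 (7298 CPM). Over 17 factors of histone pre-mRNA processing and transcription WT 1 was also the lowest, at 833 CPM against 931 to 1294 CPM. Its share of unmapped fragments, 12.2%, was the lowest after that of KO 3 (11.0%), in a range that reached 27.1%. WT 1 also had the fewest fragments counted on genes, 4410399 in a range that reached 6221181. Summed over the luminal markers and over the replication-independent histone variants, WT 1 was the second highest library, at 5304 and 908 CPM. Its summed endothelial markers, at 159 CPM against 33.5 to 92.4 CPM, were the highest, as were its macrophage markers, at 600 CPM against 215 to 575 CPM. The part of any of these in the histone values of WT 1 was not tested.

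Levels between genes are compared per kilobase of annotated exon (CPM per kb), as means over the 9 libraries. On this scale H4 genes held 37.9% of the histone signal, H2B 17.6%, H1 16.4%, H2A 16.0% and H3 12.0%, and the Hist1 cluster held 91.2% to 93.2% of it in every library. Hist1h4h, an H4 gene of the Hist1 cluster (chr13:23531050-23531519), was the highest at 87.2 CPM per kb. Hist1h1c (chr13:23738808-23740367), a linker histone gene, followed at 50.2, then Hist1h4d at 46.3, Hist1h1e at 36.6 and Hist1h4k at 36.4 CPM per kb. The libraries of neighbours in this order overlapped from Hist1h1c onward. The highest H2A gene was Hist1h2ak at 32.2 CPM per kb, the highest H2B gene Hist1h2bb at 28.5 and the highest H3 gene Hist1h3e at 18.0. Outside the Hist1 cluster the leaders were Hist2h2ac at 25.3, Hist3h2a at 3.97 and Hist4h4 at 2.75 CPM per kb. The lowest gene, Hist2h2aa2, was at 0.397 CPM per kb. The order depends on the annotated models, which span 312 to 7425 exon bases: Hist1h1d has the longest and stood at 7.38 CPM per kb, although its 41.0 to 83.7 CPM rank among the highest counts.

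**Figure D3:**
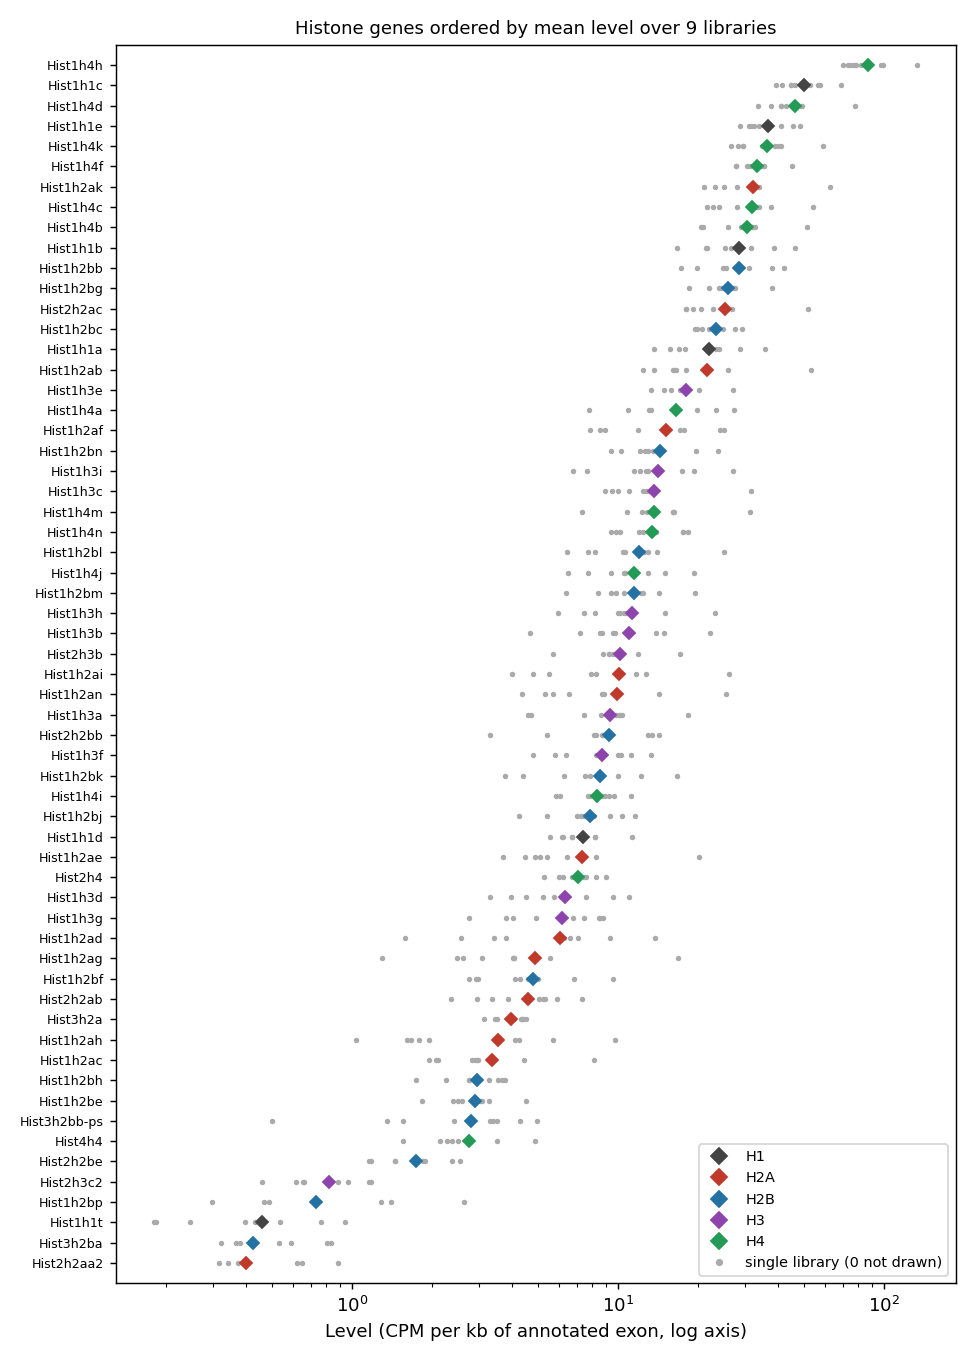
Level of the 60 histone genes in CPM per kb of annotated exon (log axis), ordered by mean, with a diamond for the mean over 9 libraries coloured by class and grey points for single libraries. Hist1h4h leads at 87.2 CPM per kb and Hist2h2aa2 is last at 0.397 CPM per kb.

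Genes also differed in how far the libraries spread. The coefficient of variation over the 9 libraries had a median of 34.7%, where counting error alone would give a median of 17.6%. It was lowest for Hist3h2a (12.4%, with 14.7% from counting error), Hist1h2bc (14.5%), Hist1h4f (15.8%) and Hist2h4 (16.4%). For H2A the median was 60.7%, with 20.6% from counting error, and Hist1h2ag reached 94.8%. Hist1h2ag stood at 8.14 CPM in WT 1, and elsewhere at 0.627 to 2.69 CPM. Hist3h2a, also an H2A gene, stood at 8.61 CPM in WT 1, within the 6.71 to 9.69 CPM of the others.

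Between genotypes, 53 of the 60 genes passed the filter on low counts and were tested with edgeR's quasi-likelihood test. None passed an adjusted p of 0.05, where 0.0886% of all 14665 genes tested did, and the smallest adjusted p among them was 0.616. At an unadjusted p under 0.05, 2 genes were lower in KO (4.59% of all genes) and 0 were higher (3.36% of all genes). DESeq2 and limma-voom likewise passed 0 histone genes after adjustment, with 2 at an unadjusted p under 0.05 in each. The sign was negative for 44 of the 53, against 50.0% of all genes tested, and the median log2 fold change (KO minus WT) was -0.27, against -7.8e-05 over all genes. Without WT 1 that median was 0.01, with 24 of 53 signs negative. The summed level averaged 792 CPM (SD 241, n = 4) for WT and 661 CPM (SD 58.9, n = 5) for KO, a log2 ratio of -0.26, which without WT 1 was -0.03. The 95% interval lay within 2-fold in both directions for 31 of the 53 genes and within 1.5-fold for 7, and for 19 it reached a 2-fold lower level in KO. Differences inside these intervals were not detectable at this depth and number of samples. Leaving out 1 library moved the count of lower genes at an unadjusted p under 0.05 to between 0 (without WT 1 or WT 3, where 3.33% and 4.67% of all genes were lower) and 9 (without WT 2, 4.94% of all genes). Without WT 1, 1 histone gene was higher (3.35% of all genes). With age as a covariate 17 of 53 were lower (32.1%, against 7.92% of all genes), WT 2 being the oldest at 132 days. With the library number as a replicate block 5 were lower (9.43%, against 5.72% of all genes). After adjustment all of these gave 0.

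**Figure D4:**
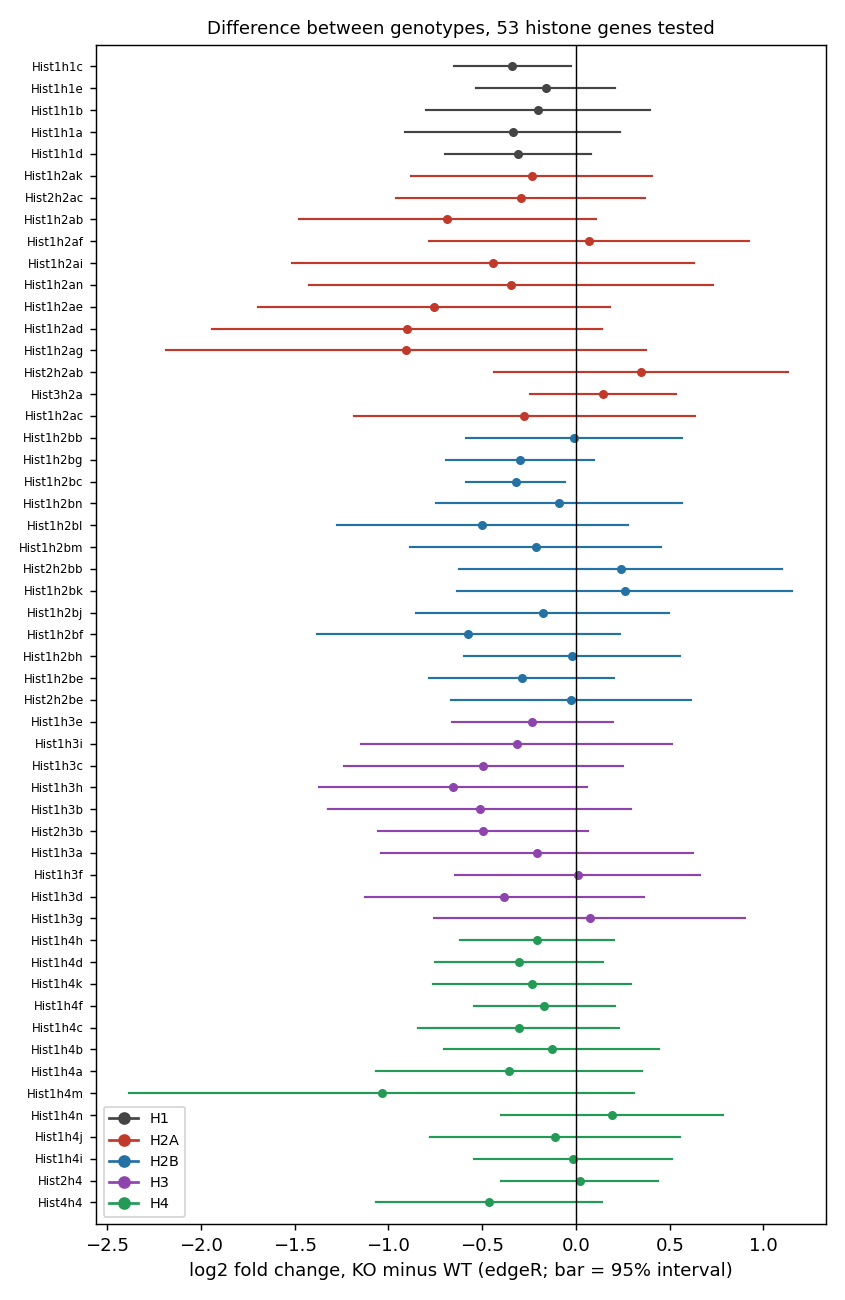
log2 fold change (KO minus WT) of the 53 tested histone genes with 95% intervals from edgeR, grouped by class. Points lie left of 0 for 44 genes, and all intervals cross 0 except those of Hist1h1c and Hist1h2bc.

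The linker histone genes had the smallest median standard error of the 5 classes, 0.18 on the log2 scale. Hist1h1c stood at 107, 69.6, 88.2 and 89.5 CPM in WT 1 to WT 4 and at 64.6, 61.3, 69.9, 82.3 and 72.5 CPM in KO 1 to KO 5. WT 2 lay among the KO libraries and the rest of WT lay above them. Its log2 fold change was -0.34 ± 0.14 (SE), with an unadjusted edgeR p of 0.0357 and an adjusted p of 0.616. Hist1h1e stood at 78.8, 62.7, 71.0 and 88.0 CPM in WT and at 61.1, 65.3, 55.7, 93.7 and 59.8 CPM in KO. KO 4 was the highest and KO 3 the lowest of all 9 libraries, so all WT libraries lay within the KO range (log2 fold change -0.16 ± 0.17). Hist1h1b, whose expression is tied to proliferating cells, stood at 34.4, 12.3, 23.4 and 21.3 CPM in WT and at 19.7, 16.0, 16.1, 28.7 and 18.8 CPM in KO. WT 1 was its highest and WT 2 its lowest library (-0.20 ± 0.27). Without WT 1 these values were -0.23, -0.14 and 0.06, and no unadjusted p was under 0.05. All 5 tested H1 genes had a negative sign, with a median of -0.31, which without WT 1 became 4 of 5 and -0.13. The sixth, the testis gene Hist1h1t, had 20 counts in all.

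H2A and H2B form dimers within the nucleosome core. The H2A gene Hist1h2ak stood at 24.7, 9.82, 12.6 and 8.28 CPM in WT and at 11.0, 9.13, 12.6, 12.5 and 13.3 CPM in KO. All KO libraries lay between WT 4 and WT 1, and the log2 fold change was -0.24 ± 0.29. Hist1h2ab stood at 25.1, 6.48, 12.3 and 7.83 CPM in WT and at 7.68, 5.87, 10.3, 7.58 and 8.55 CPM in KO. WT 1 exceeded every other library (-0.68 ± 0.36; edgeR adjusted p = 0.65, 0.0838 before adjustment). Hist1h2ad gave -0.90 ± 0.47, with 1.46 to 7.91 CPM in WT and 0.903 to 3.78 CPM in KO. Hist2h2ac stood at 27.0, 10.7, 11.8 and 9.40 CPM in WT and at 9.39 to 14.0 CPM in KO. Apart from WT 1, its WT libraries lay within the KO range (-0.29 ± 0.30). The most positive log2 fold change of the 53 was that of Hist2h2ab, at 1.05 to 2.33 CPM in WT and 1.30 to 3.25 CPM in KO (0.35 ± 0.36), and Hist3h2a gave 0.14 ± 0.18. Without WT 1, Hist1h2ab gave -0.16, Hist1h2ad -0.55, Hist1h2ak 0.19, Hist2h2ac 0.16, Hist2h2ab 0.50 and Hist3h2a 0.18, and the summed H2A level changed sign, from a log2 ratio of -0.34 to 0.16. Of 12 tested H2A genes, 9 had a negative and 3 a positive sign, with a median of -0.32. Without WT 1, 3 were negative and 9 positive, with a median of 0.18.

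Among H2B genes, Hist1h2bc was the only histone gene of the 53 with every KO library below every WT library, an order that 1.26% of all genes tested showed. It stood at 34.0, 28.6, 31.7 and 26.9 CPM in WT and at 26.6, 24.0, 23.0, 22.6 and 25.3 CPM in KO. The gap between the lowest WT and the highest KO library was 26.9 against 26.6 CPM. Its log2 fold change was -0.32 ± 0.12 (95% interval -0.58 to -0.06), with an unadjusted edgeR p of 0.0218 and an adjusted p of 0.616. Without WT 1 it was -0.26 and the unadjusted p was 0.0593. Its annotated model, at chr13:23684199-23692908, is also 1 of the 3 with at least 40 bases after the stop in which no stem-loop was found. Hist1h2bb stood at 10.0 to 19.3 CPM in WT and 8.80 to 21.3 CPM in KO, and its log2 fold change of -0.01 ± 0.26 turned positive under several settings, no scaling among them. Hist1h2bg stood at 23.5, 15.3, 16.9 and 15.7 CPM in WT and at 11.4 to 16.7 CPM in KO (-0.30 ± 0.18). Hist1h2bk (0.26 ± 0.41) and Hist2h2bb (0.24 ± 0.39) had positive signs, with libraries at 1.79 to 7.91 CPM and at 1.25 to 5.42 CPM. Without WT 1, Hist1h2bk gave 0.91 (edgeR adjusted p = 0.74, 0.0117 before adjustment), Hist1h2bg -0.14, Hist1h2bb 0.15 and Hist2h2bb 0.54. Hist2h2be, whose model also lacks the stem-loop, was the single tested gene lowest in WT 1, at 3.02 CPM against 3.08 to 6.69 CPM elsewhere. Of 13 tested H2B genes, 11 had a negative sign and the median was -0.18. Without WT 1, 6 were negative and the median was 0.0032, and the summed H2B log2 ratio went from -0.19 to -0.011.

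H3 and H4 form the tetramer at the centre of the nucleosome. Hist1h3e stood at 22.6, 13.2, 14.6 and 15.2 CPM in WT and at 12.4, 11.1, 14.3, 16.8 and 15.0 CPM in KO. WT 1 was the highest and the other 3 WT libraries lay within the KO range (-0.23 ± 0.20). Hist1h3h stood at 9.54, 4.18, 6.15 and 3.36 CPM in WT and at 2.44 to 4.45 CPM in KO (-0.65 ± 0.33; edgeR adjusted p = 0.646, 0.0692 before adjustment). Of its windows, 93.9% occur in another gene, so few positions of its model are its own. Hist2h3b stood at 4.65 to 8.37 CPM in WT and at 2.77 to 4.76 CPM in KO (-0.50 ± 0.26). Hist1h3i (-0.32 ± 0.38) and Hist1h3c (-0.49 ± 0.34) were highest in WT 1, at 11.2 and 20.0 CPM. Hist1h3g had the weakest positive sign named here, 0.07 ± 0.38. Without WT 1, Hist1h3h gave -0.33, Hist2h3b -0.29, Hist1h3i 0.05, Hist1h3c 0.03, Hist1h3e -0.04 and Hist1h3g 0.29. Over 10 tested H3 genes the median was -0.35, with 8 negative signs, and without WT 1 it was -0.0041, with 5. The summed H3 log2 ratio went from -0.30 to 0.015.

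For H4, Hist1h4h stood at 62.8, 36.2, 32.9 and 45.7 CPM in WT and at 46.5, 35.4, 38.6, 34.3 and 36.8 CPM in KO. WT 1 was the highest and WT 3 the lowest library, and the log2 fold change was -0.21 ± 0.19. Hist1h4d stood at 88.6, 42.8, 48.7 and 55.5 CPM in WT and at 38.1 to 55.8 CPM in KO (-0.30 ± 0.20). Hist1h4k (-0.23 ± 0.24) and Hist4h4 (-0.46 ± 0.27) were also highest in WT 1, at 18.4 and 14.0 CPM. Hist1h4n, at 4.03 to 7.91 CPM in WT and 4.24 to 7.55 CPM in KO, had a positive sign (0.19 ± 0.27). Without WT 1, Hist1h4h gave 0.0040, Hist1h4d -0.04, Hist1h4k 0.01, Hist4h4 -0.21 and Hist1h4n 0.43. All 13 H4 genes were tested and 11 had a negative sign, with a median of -0.21. Without WT 1, 6 were negative and the median was 0.0040.

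Hist1h4m (chr13:21811746-21812147), singled out after its values were seen had the most negative log2 fold change. Its counts were 54, 31, 39 and 23 in WT 1 to WT 4 and 33, 18, 30, 24 and 0 in KO 1 to KO 5. A count of 0 in KO 5 allows up to 0.514 CPM, 3 counts of that library's gene total. The log2 fold change was -1.04 ± 0.61 (edgeR adjusted p = 0.683, 0.118 before adjustment), and leaving out KO 5 or WT 1 moved it about equally, to -0.71 and -0.70. Of the 14665 genes tested, 1 had 0 counts in a single library and at least 18 in each of the others, and it was Hist1h4m itself. The minimum of 18 is the smallest other count of Hist1h4m, so this count describes the gene and tests nothing. At a minimum of 10 counts, 2 genes did so. Hist1h4n, an H4 gene with 85.6% of its windows in another histone gene, had 44 counts in KO 5. The cause of the 0 was not tested. Of the 353 windows of 50 bases in the Hist1h4m model, 36 occur in no other annotated gene, so few positions of the model are its own.

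Head-to-head H2A and H2B genes share the DNA between their starts, and 10 such pairs were found with starts 173 to 302 bases apart. The pair at 173 bases is Hist3h2a with the pseudogene Hist3h2bb-ps. The H2A partner was higher per kb in 5 pairs and the H2B partner in 5. Hist2h2ac stood at 25.3 and its partner Hist2h2be at 1.74 CPM per kb, with Hist2h2ac higher in 9 of 9 libraries. The size of such gaps depends on the annotated models. Those of Hist2h2ac and Hist2h2be hold 520 and 2620 exon bases, and their counts summed to 622 and 221. Hist1h2bg stood at 25.8 and Hist1h2ae at 7.31 CPM per kb, with Hist1h2bg higher in every library. Hist1h2bc stood at 23.3 against 3.37 CPM per kb for Hist1h2ac, again in every library. Their models hold 1156 and 2482 exon bases, and their counts summed to 1289 and 394. Hist1h2an stood at 9.90 against 0.728 CPM per kb for Hist1h2bp. Partners were closer in Hist1h2ai and Hist1h2bl, at 10.1 and 12.0 CPM per kb.

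The genes that act around histone supply passed no adjusted threshold either. Of 11 replication-independent variants, which replace core histones outside S phase, the median was -0.06, or -0.03 without WT 1 and -0.23 without KO 5. At an unadjusted edgeR p under 0.05, 1 of them was lower, where 4.59% of all genes were. That one was H2afj, at 46.2 to 67.2 CPM in WT and 34.8 to 51.8 CPM in KO (-0.35 ± 0.15; edgeR adjusted p = 0.616, 0.0332 before adjustment). H2afx, which carries the stem-loop, stood at 50.2, 16.9, 27.6 and 21.3 CPM in WT and at 20.7, 22.8, 21.2, 26.0 and 22.4 CPM in KO. Its highest library was WT 1, as for most genes of the clusters. WT 1 was also the highest library for H2afj (67.2 CPM) and H2afz (51.6 CPM). H3f3b, which encodes a replacement H3, was highest in WT 3 at 490 CPM, and H3f3a in WT 2 at 37.8 CPM. Of 17 factors that transcribe or process histone pre-mRNA, 13 had a positive sign and the median was 0.07, or 11 and 0.02 without WT 1. Slbp gave 0.07 ± 0.13 and Npat 0.19 ± 0.17. Zfp473, which encodes a zinc finger protein of histone pre-mRNA processing, gave 0.66 ± 0.29 (edgeR adjusted p = 0.619, 0.0454 before adjustment). Of 14 chaperones and acetyltransferase genes, 7 had each sign. Chaf1a, a subunit of chromatin assembly factor, gave 0.41 ± 0.18 (edgeR adjusted p = 0.626, 0.0480 before adjustment).

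The proliferation lists had positive medians, with no gene past the adjusted threshold. Of 24 DNA replication genes, 20 were positive. Their median of 0.19 was 0.23 without WT 1, 0.11 without WT 4 and 0.29 without WT 3. At an unadjusted edgeR p under 0.05, 3 were higher, where 3.36% of all genes were. Those were E2f1 (0.59 ± 0.24), a transcription factor of S phase entry, Pola1 (0.44 ± 0.18), the catalytic subunit of the priming polymerase, and Uhrf1 (0.44 ± 0.20), which maintains DNA methylation. Pcna, the sliding clamp, gave -0.04 ± 0.16. Of 15 mitosis genes, 12 were positive, with a median of 0.31 that was 0.38 without WT 1. It was 0.10 without WT 2, 0.15 without KO 3, 0.17 without WT 4 and 0.46 without WT 3. Mki67 stood at 152 to 369 CPM in WT and 255 to 563 CPM in KO (0.55 ± 0.32). Among the noncoding RNAs without poly(A) tails, 6 of 12 were tested and 3 (Rmrp, Scarna10 and Terc) were listed at 0. Rn7sk, the most abundant, stood at 7732 to 8864 CPM in WT and 7298 to 10823 CPM in KO.

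No marker gene of the cell types listed passed the adjusted threshold. At an unadjusted edgeR p under 0.05, 6 of 8 fibroblast and 3 of 8 luminal markers were lower in KO. So were 2 of 8 endothelial and 2 of 9 tested macrophage markers, where 4.59% of all genes were lower. The remaining lists had no such marker, and no marker was higher at that p. The 8 fibroblast markers summed to 753 to 1043 CPM in WT and 290 to 636 CPM in KO, without overlap, and all 8 had a negative sign (median -0.82). The 8 endothelial and 9 tested macrophage markers also had negative signs throughout (medians -0.77 and -0.61), as did the 8 luminal markers (median -0.47). The sums of these lists overlapped between the groups. Endothelial markers summed to 71.1 to 159 CPM in WT and 33.5 to 92.4 CPM in KO, and macrophage markers to 345 to 600 and 215 to 433 CPM. Without WT 1 the medians were -0.70 for fibroblasts, -0.19 for endothelium, -0.53 for macrophages and -0.28 for luminal epithelium, with 1 fibroblast and 1 endothelial marker positive. Markers of T and NK cells and of B cells summed to at most 25.3 and 12.8 CPM in any library. Those of neutrophils summed to at most 26.5 CPM, with Ly6g and Mpo at 0, and those of erythroid cells to 20.4 to 173 CPM. The 5 tested erythroid markers had negative signs (median -0.73, or -0.90 without WT 1), and the 2 tested neutrophil markers had positive signs. The 2 tested T and NK markers and the B cell marker tested were negative. The part of any of these markers in the histone levels was not tested.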

How the data were processed

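Per the labels' protocols, RNA from dissociated tumors was depleted of ribosomal RNA and made into stranded libraries sequenced as paired ends of 50 cycles. The tools listed in the submitters' processing notes are STAR 2.5.4a, Trimmomatic 0.36 and FastQC 0.11.5, with the build GRCm38. The authors deposited 1 table of raw counts per gene, whose extra lines have the layout of STAR gene counts, which take uniquely placed fragments only. No annotation release or strand setting is stated in the labels. Fragments that named no gene (unmapped 11.0% to 27.1%, multimapping 5.50% to 9.53%, no feature 34.0% to 50.4%, ambiguous 0.971% to 1.23%) stayed out of library sizes.

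Identifiers were matched to GENCODE M21 (55141 matched), which also gave positions, exon lengths and transcripts. Differences were tested in R 4.3.3 with edgeR 4.0.16 (glmQLFit and glmQLFTest, TMM factors, filterByExpr, genotype only, two-sided, Benjamini-Hochberg over 14665 genes, threshold 0.05). The standard error is the log2 fold change over the square root of F. On simulated counts for this comparison with 200 of 14665 genes changed, 98 were recovered at a 2-fold, 188 at a 4-fold and 0 at a 1.5-fold change. Alternatives used DESeq2 1.42.0, limma 3.58.1 (voom), other scaling, filters, covariates and libraries left out.

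The genes described and the lists around them were chosen with earlier results of these data known. Named were the 3 highest genes per class and the highest per cluster by CPM per kb, up to 6 with the smallest unadjusted p in each direction, the genes at the edge of the count minimum, and from each list of S phase and histone supply up to 3 with the smallest p plus Slbp, Npat, Pcna and Mki67. Genes named beyond this, Hist1h4m among them, were chosen after their values were seen. Intervals and floors cover counting error only where they rest on counts, since reads are not independent molecules.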

Additional observations from a re-analysis of the deposited data

Results flagged for a closer look

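A library far from the rest of its group, by the gap to its nearest neighbour over the group's range, was looked for in 70 groups of values, and 5 were found. Chance alone gives about 1 in 20 groups. Hist1h1e, a linker histone gene, was high in KO 4, at 93.7 CPM where the next KO library had 65.3 and the lowest 55.7 CPM. The summed H1 level was high in the same library, at 284 CPM with the next at 213 and the lowest at 203 CPM. Hist1h1e is part of that sum. Hist2h2ac, an H2A gene, was high in WT 1, at 27.0 CPM where the other WT libraries had 9.40 to 11.8 CPM. The summed Hist2 cluster, which includes it, was high in WT 1 at 61.4 CPM, against 33.9 to 37.4 CPM in the other WT libraries. Hist2h3b, an H3 gene, was low in KO 2, at 2.77 CPM where the other KO libraries had 4.27 to 4.76 CPM.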

How the results depend on the processing

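No histone gene passed the adjusted threshold under any alternative that was run, nor at an adjusted p under 0.1. The count over all genes, 13, was 63 with DESeq2, 29 without a count filter and 6 with a mean count of at least 50, where fewer genes were tested, and 6 to 13 with 1 library left out. The 2 histone genes at an unadjusted p under 0.05, both lower in KO, became 0 without scaling factors or without WT 1 and WT 4, 17 with age, 5 with the unmapped share and 10 with the share on no feature as a covariate; the cause was not tested. The shares of all genes lower in KO at that p were 7.92%, 7.61% and 8.19% with the 3 covariates, against 4.59% without one. With 1 library left out, the count of lower genes was 0 without WT 1 or WT 3 (3.33% and 4.67% of all genes were lower). It was 9 without WT 2 (4.94% of all genes) and 5 without WT 4 (5.73%). It was 1 without KO 1, KO 2 or KO 5 (3.54%, 3.11% and 5.18% of all genes). Without WT 1, 1 histone gene was higher (3.35% of all genes). The median over histone genes ran from -0.49 (age) to 0.01 (without WT 1, alone or with WT 4) and the summed log2 ratio from -0.39 (without WT 2) to -0.03 (without WT 1). For the 34 genes with under 50% of their windows in another gene, an alternative chosen after seeing the data, the summed ratio was -0.25. The planned count of windows over the whole genome was not run, since only annotated transcripts were used here.

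With the library number as a replicate block, 5 histone genes had an unadjusted p under 0.05, all lower in KO, as were 5.72% of all genes, and 10 genes in all passed adjustment. Deviations from the group means of same-numbered libraries had correlations of -0.02, 0.38, 0.11 and 0.38. No correlations of differently numbered libraries are at hand to set beside them, so these values cannot decide whether the numbers pair the samples. The main fit used genotype only.

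For 26 named genes, 477 of 507 values kept their sign and side of the threshold and 30 changed sign. Hist1h4h gave 0.023 with voom and Hist1h2bb 0.054 without scaling. With age as a covariate Hist1h4n gave -0.043, Hist1h2bk -0.14 and Hist1h3g -0.13. Without WT 1 and WT 4, Hist1h1e gave 0.00088, Hist1h1b 0.13, Hist1h2ak 0.054, Hist2h2ac 0.083, Hist1h2bb 0.15, Hist1h3i 0.0028, Hist1h3c 0.015, Hist1h4h 0.15, Hist1h4d 0.056 and Hist4h4 0.010. With 1 library left out, values ranged from -0.41 to 0.057 for Hist1h1b, -0.42 to 0.19 for Hist1h2ak, -0.46 to 0.16 for Hist2h2ac, -0.20 to 0.15 for Hist1h2bb, -0.55 to 0.053 for Hist1h3i, -0.69 to 0.034 for Hist1h3c, -0.33 to 0.0040 for Hist1h4h, -0.36 to 0.011 for Hist1h4k, -0.027 to 0.54 for Hist2h2bb and -0.16 to 0.32 for Hist1h3g. Hist1h4m, added after its values were seen, stayed negative throughout. Depth limits the lowest genes: 7 of the 60 were not tested.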
